A study of Mus musculus with 41 samples.

Results

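Spindle cell carcinomas that grew from transplanted Trp53-null mammary tissue were compared by the diet the mice were fed during puberty. The members were the tumors whose label gives a p53 spindle-like morphology, 12 of the 41 tumors of the series. After pubertal HFD (high fat diet) there were 6, with 3 from mice kept on HFD for life and 3 from mice switched to a low fat diet as young adults (HFD-LFD). After pubertal LFD (low fat diet) there were also 6, with 3 from mice kept on LFD (LFD) and 3 from mice switched to HFD (LFD-HFD). All 12 share the genotype of the graft, which was mammary duct tissue of female Trp53-null BALB/c donors placed in the cleared inguinal fat pads of wild-type female BALB/c mice at weaning age, with the diet started after surgery. The fat, vessels and immune cells of such a tumor can therefore be wild-type host cells. Of the tumors after pubertal HFD 5 were late and 1 early in onset, and after pubertal LFD 4 were late and 2 early. The labels number each of the 12 mice differently, so each group held 6 tumors from 6 mice.

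Loss of p53 in the mammary epithelium of BALB/c mice gives mostly epithelial carcinomas and, less often, spindle cell carcinomas, in which the cells lose epithelial junctions and take on an elongated, mesenchymal shape. Such tumors are likened to the claudin-low class of human breast cancer, which is known for low claudin and E-cadherin levels and for high levels of mesenchymal genes. Puberty is the period in which the mammary ducts grow through the fat pad, and diet in this period was the exposure of interest here.

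Each array measured the RNA of 1 tumor in competition with a common reference, RNA pooled from 11 mouse cell lines, and the value used throughout is log2 of tumor over reference for 1 probe per gene. A value of 0 means as much signal in the tumor as in the reference, and a difference of 1 between groups is a doubling of the ratio. Per the labels the tumor carries Cy5, which sets the sign of every value here, whereas the study's methods name Cy5 as the dye of the reference. In the files, the male-specific genes Ddx3y and Eif2s3y were dimmer in Cy5 on all 12 arrays, with log2 Cy5/Cy3 of -7.50 to -4.82, although the median over 9 Y-linked probes spread from -0.41 to 0.84. The SD of a probe between the 12 arrays had a median of 0.643 in Cy5 and of 0.337 in Cy3. Of 30175 gene names on the array, 20406 were tested. Between 59.1% and 72.7% of spots were well above background in the tumor channel. The mean share differed between the diets by less than its spread (exact permutation test, two-sided, p = 0.63). Among the array measures tested in this way, the median log2 ratio had the smallest p. It ran from 0.24 to 0.32 after pubertal HFD and from 0.07 to 0.28 after pubertal LFD (exact permutation test, p = 0.0476, Benjamini-Hochberg adjusted 0.238). Arrays M32L, M76R and M86R, all after pubertal LFD, stood apart in earlier work on these data, and results are given with and without them. Of the 12 arrays, M32L had the narrowest spread of ratios (median absolute deviation 0.714) and M76R the lowest share well above background (59.1%). M86R lay within the range of the other arrays in both, at 1.12 and 68.5%.

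The tumors were checked against markers of the histology. Vimentin (Vim), the main intermediate filament of mesenchymal cells, had a median of -0.47 over the 12 tumors and -1.71 over the 29 epithelial tumors of the series. E-cadherin (Cdh1) had medians of 1.1 and 1.34, the adhesion molecule Epcam 2.08 and 2.40, and the luminal keratins Krt18 2.81 and 2.78 and Krt8 2.37 and 2.24. The claudin genes were lower in the spindle-like tumors, with medians of 0.23 and 1.27 for Cldn7 and of 1.20 and 1.99 for Cldn3. The transcription factors Zeb1, Zeb2 and Twist1 drive epithelial to mesenchymal transition. Their medians were higher there, at -1.03, 0.06 and 0.26 against -1.75, -0.61 and -0.42. Snai2, another such factor, had a lower median there, of -1.28 against -0.97. Within the spindle-like tumors the range was wide, from -2.60 to 1.92 for Cdh1. M63L and M129L had the lowest medians over 30 epithelial junction and keratin genes, at -2.71 and -1.51, while 8 of the other 10 lay at 1.03 or above. Spindle cell and epithelial arrays were scanned in separate sessions, so histology and session cannot be told apart.

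Trp53 itself, the gene deleted in the graft, had a value of 1.0 to 1.95 with a median of 1.33 after pubertal HFD and of 0.08 to 1.75 with a median of 1.59 after pubertal LFD. The lowest tumors, M32L and M76R, both read 0.08. The difference of 0.25 was smaller than the spread between tumors (limma, adjusted p = 0.814). The position of its probe (chr11:69404204-69404263, NCBI37/mm9) relative to the deleted part is not given in the sources used here, so the value is no check of the genotype. Of 14 measured p53 target genes, 13 had a lower mean after pubertal HFD. Their median difference was -0.24, and Ccng1, a cyclin induced by p53, was the only one of them with an unadjusted p under 0.05, at -0.43, where 4.28% of all genes tested had a lower mean at that level.

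No gene passed the test in the comparison of the 6 tumors after pubertal HFD with the 6 after pubertal LFD. With limma and Benjamini-Hochberg adjustment over 20406 genes, 0 genes (0%) had an adjusted p under 0.10, and the smallest adjusted p was 0.358. At an unadjusted p under 0.05, 1080 genes (5.29%) had a higher mean and 873 (4.28%) a lower mean after pubertal HFD, so 55.3% of them were higher. That share was 23.6% with normexp background correction and loess, and 28.3% in the authors' table of ratios. Groups that did not overlap, with every tumor of one diet above every tumor of the other, were found for 78 genes (0.382%) that were higher and 31 (0.152%) that were lower. Without M32L, M76R and M86R the count was again 0 with a smallest adjusted p of 0.125, and 989 genes (4.85%) had a higher and 885 (4.34%) a lower mean at an unadjusted p under 0.05. The same count was 0 at both adult diets, with 392 genes (1.92%) and 399 (1.96%) at the unadjusted threshold for HFD-LFD against LFD, and 733 (3.59%) and 513 (2.51%) for HFD against LFD-HFD, given as higher and lower. The contrast of these 2 differences also gave 0 calls.

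The 12 genes of smallest p in each direction show how the tumors lay, and since they were picked for their p, the sizes below are a description. Nestin (Nes; probe at chr3:87784303-87784362), an intermediate filament of stem and progenitor cells, ranged from -0.50 to 1.37 with a median of 0.15 after pubertal HFD and from -2.79 to -0.86 with a median of -1.67 after pubertal LFD. All 6 HFD tumors lay above all 6 LFD tumors. The mean was 0.37 ± 0.68 (SD, n = 6) in the first group and -1.66 ± 0.65 (SD, n = 6) in the second. They differed by 2.03 on the log2 scale, with a standard error of 0.36 and an adjusted p of 0.358 from limma. It was 2.12 at adult LFD, 1.95 at adult HFD and 1.65 without the 3 arrays.

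Wasf1 (chr10:40658226-40658285), which encodes the actin regulator WAVE1, ran from -1.38 to 0.18 with a median of -0.74 after pubertal HFD and from -2.82 to -1.62 with a median of -2.26 after pubertal LFD. Here too the groups were apart, by a difference in means of 1.53 (standard error 0.27). Ovgp1 (chr3:105789989-105790048), an oviduct glycoprotein of the chitinase family, had the smallest p of all genes and ran from 1.26 to 2.49 with a median of 1.87 and from 0.01 to 0.75 with a median of 0.63. That difference was 1.34 (standard error 0.22), and the groups did not overlap.

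Bid, a pro-apoptotic member of the Bcl-2 family, lay between 1.24 and 1.96 with a median of 1.87 after pubertal HFD and between 0.33 and 1.30 with a median of 0.81 after pubertal LFD. Only tumors M118R (1.24) and M86R (1.30) crossed, and the difference was 0.95 (standard error 0.21). The list of 22 apoptosis regulators showed no shift, with a median difference of 0.045. In it 1 gene had a higher and 1 a lower mean at an unadjusted p under 0.05, against 5.29% and 4.28% of all genes. Others with a higher mean after pubertal HFD were Gabre, a subunit of the GABA-A receptor, by 1.32, the transcription factor Sox14 by 1.13, Rabl5, a small GTPase of cilia, by 0.91, Guca1a, a calcium sensor of photoreceptors, by 0.87, and Rtcd1, an RNA cyclase, by 0.76. The clone names 4930412O13Rik, 1700061I17Rik and 4933421I07Rik completed the 12, at 1.37, 1.19 and 1.08. The probe of 4933421I07Rik was well above background on 4 HFD arrays and on 1 LFD array.

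The largest difference among the 24 was that of Tmem45b (chr9:31233980-31234039), a transmembrane protein. After pubertal HFD it lay between -5.94 and -5.21 with a median of -5.63. After pubertal LFD it read 2.55 in M76R, 0.37 in M32L, 0.20 in M86R, -1.03 in M33R, -1.12 in M84R and -5.63 in M18L. So 5 of the 6 LFD tumors lay more than 4 log2 units above the highest HFD tumor, and M18L lay within the HFD range. The difference was -4.83 with a standard error of 1.0.

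Sostdc1 (chr12:37044197-37044256), a secreted antagonist of BMP and Wnt ligands, ran from -6.84 to -4.52 with a median of -5.73 after pubertal HFD and from -4.16 to 0.80 with a median of -1.85 after pubertal LFD. The groups were apart, M18L was the LFD tumor nearest to the HFD tumors, and the difference was -4.28 (standard error 0.77). Nat8l (chr5:34348343-34348402), which makes N-acetylaspartate, was nearly constant after pubertal HFD, from -2.94 to -2.56 with a median of -2.74, and spread from -1.49 to 2.25 with a median of 0.12 after pubertal LFD. Its difference was -2.79 (standard error 0.53), and the groups were apart.

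Fibulin 1 (Fbln1; chr15:85081927-85081986), a protein of the extracellular matrix, ran from -2.45 to -1.82 with a median of -2.09 and from -1.55 to -0.36 with a median of -0.90. The groups were apart, by -1.15 (standard error 0.22). Asporin (Aspn), a proteoglycan that binds collagen, differed by -1.93, and the collagen receptor subunit Itga1 by -1.31. Adam23, a membrane protein without protease activity, differed by -2.34, the serine protease inhibitor gene Serpina3i by -2.63, the Wnt modulator Dact1 by -1.76, Zfp783 by -1.82 and Ccdc8 by -1.58. Ccdc8 was well above background on only 2 of the 6 HFD arrays.

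**Figure D1:**
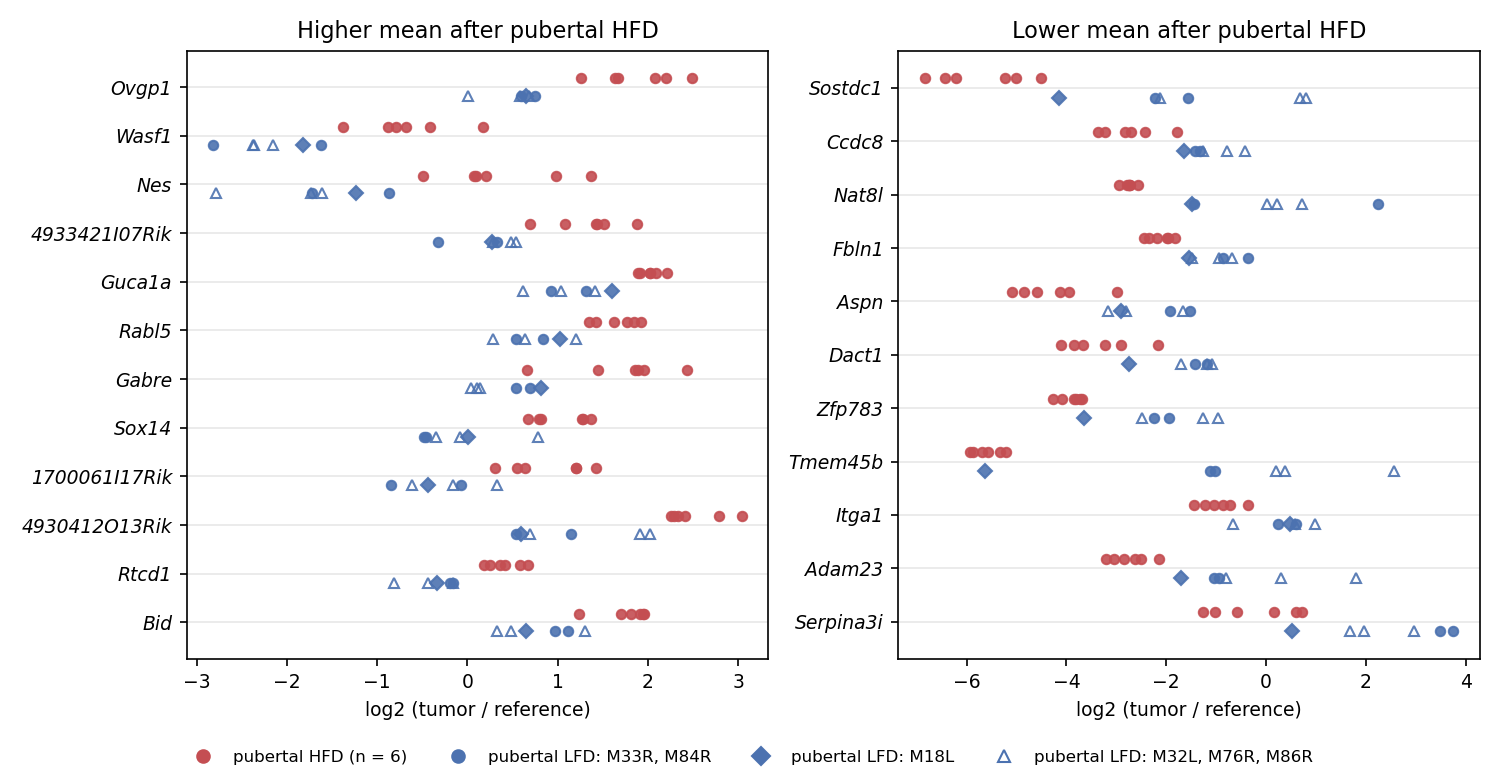
Log2 of tumor over reference (x axes, separate scales) for the 12 genes of smallest p with a higher mean after pubertal HFD (left) and 11 of the 12 with a lower mean (right), 1 point per tumor. Red is pubertal HFD and blue pubertal LFD, with M18L as diamonds and M32L, M76R and M86R as open triangles; of these 23 genes, 14 show no overlap, and M18L lies at or near the red points for Tmem45b, Zfp783 and Sostdc1.

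Of the 24 genes, 14 did not overlap between the diets, 8 of them higher and 6 lower, and the choice by p favours such genes. All 24 had the same sign at both adult diets and without M32L, M76R and M86R. Such subsets, and the slides below, hold the same tumors on which the genes were picked, which favours agreement. Of all 1953 genes with an unadjusted p under 0.05, 1951 kept their sign at both adult diets and 1952 without the 3 arrays. The 12 arrays lay on 3 slides of 4, with 3 HFD tumors and M18L on the first, 2 and 2 on the second, and M56LA with 3 LFD tumors on the third. Within slides, 23 of the 24 genes had the same sign on all 3. For Nes the differences were 1.79, 2.80 and 0.90, and for Tmem45b 0.01, -5.83 and -5.83, the first slide resting on M18L alone.

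Each tumor was also left out in turn. There were 0 calls for 11 of the 12 tumors and 96 without M18L, a late tumor of a mouse kept on LFD, with 27 genes higher (0.132%) and 69 lower (0.338%) after pubertal HFD. With M18L kept in, calls were also made by other settings, 497 with array weights, 69 with all 41 tumors in the fit and 8 with normexp and loess. The fit of all 41 takes its variance largely from the epithelial tumors. The weights were lowest for M76R (0.343), M32L (0.534) and M18L (0.570). Of the 24 genes above, 16 were among the 96. In 88 of the 96, M18L lay nearer the HFD mean than the mean of the other LFD tumors. These genes were called only once M18L was left out, which favours that count, so it is no separate result about M18L. The smallest adjusted p in that fit, 0.00565, belonged to Tmem45b, at -5.80. Over 20245 genes with values on every array, the root mean square distance of M18L was 0.730 from the mean of the HFD tumors and 0.962 from the mean of the other LFD tumors. M86R was also nearer the HFD mean, at 0.764 against 0.833, the 4 other LFD tumors were nearer the LFD mean, and all 6 HFD tumors were nearer the HFD mean of the other 5. The LFD mean set against M18L holds M76R and M32L, which correlated least with the mean of the other arrays (0.749 and 0.814). A mean that holds such tumors can lie farther from any tumor. The distances are thus a description and do not by themselves show that M18L resembles the HFD tumors. M18L shares its slide with 3 HFD tumors, and the part of this in the result was not tested.

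**Figure D2:**
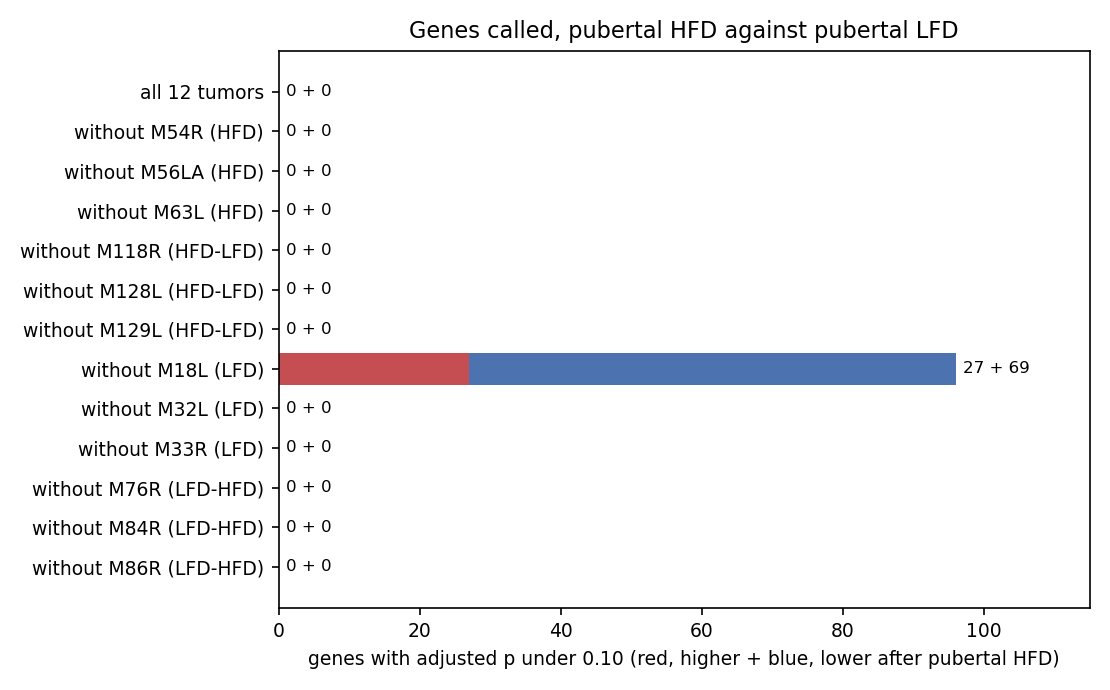
Number of genes with an adjusted p under 0.10 (x axis) for all 12 tumors and with each tumor left out in turn (y axis, regimen in brackets). Red counts genes higher and blue genes lower after pubertal HFD; only the fit without M18L has calls, 27 higher and 69 lower.

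Genes of cell division had higher means after pubertal HFD, and for the list as a whole this rested on the 3 arrays that stood apart. All 33 measured genes had a higher mean, 6 had an unadjusted p under 0.05 against 5.29% of all genes in this direction, 0 were called, and the median difference was 0.52 against 0.04 over all genes tested. Tyms, the thymidylate synthase, ran from 1.47 to 2.01 with a median of 1.80 after pubertal HFD and from -0.35 to 1.31 with a median of 0.80 after pubertal LFD, without overlap and with a difference of 1.05. The replication helicase subunits Mcm7 and Mcm2 differed by 0.79 and 0.72, and Foxm1, a transcription factor of mitosis, by 0.66. Per tumor, the list median lay between 0.46 and 0.75 in the 6 HFD tumors, M18L, M33R and M84R, and was -0.01 in M32L, -0.07 in M86R and -0.98 in M76R. Without these 3 the median difference was -0.04. There 2 of the 33 had a higher mean at an unadjusted p under 0.05, against 4.85% of all genes. Tyms still did not overlap there, with a difference of 0.63. Pcna, the proliferation marker stained in the study's tumors, ran from -0.53 to 0.22 and from -0.81 to 0.04, with a difference of 0.14 (adjusted p = 0.828 with limma).

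Adipocyte genes had lower means after pubertal HFD in all 15 measured members, with a median difference of -2.94, and 10 of the 15 had an unadjusted p under 0.05 against 4.28% of all genes in this direction. In bulk RNA, fewer cells of a type and less RNA per cell cannot be told apart. Adiponectin (Adipoq), a hormone made by fat cells, ran from -5.63 to -4.39 with a median of -5.28 after pubertal HFD. After pubertal LFD it read 3.16 in M76R and 1.20 in M32L, but -3.40 in M86R, -3.82 in M33R, -4.87 in M84R and -5.41 in M18L. Fabp4, Lpl and Plin1, which bind, release and coat fat, were also highest in M76R, followed by M32L, with differences of -2.95, -3.12 and -3.09. The list median was 2.89 in M76R and 0.81 in M32L and between -5.20 and -3.20 in the other 10 tumors. Without the 3 arrays the median difference was -0.36, and 0 of 15 members had an unadjusted p under 0.05. M32L and M76R were also the tumors with the highest medians over the 20 endothelial genes, 1.18 and 0.91 against -1.36 to -0.14 in the others.

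**Figure D3:**
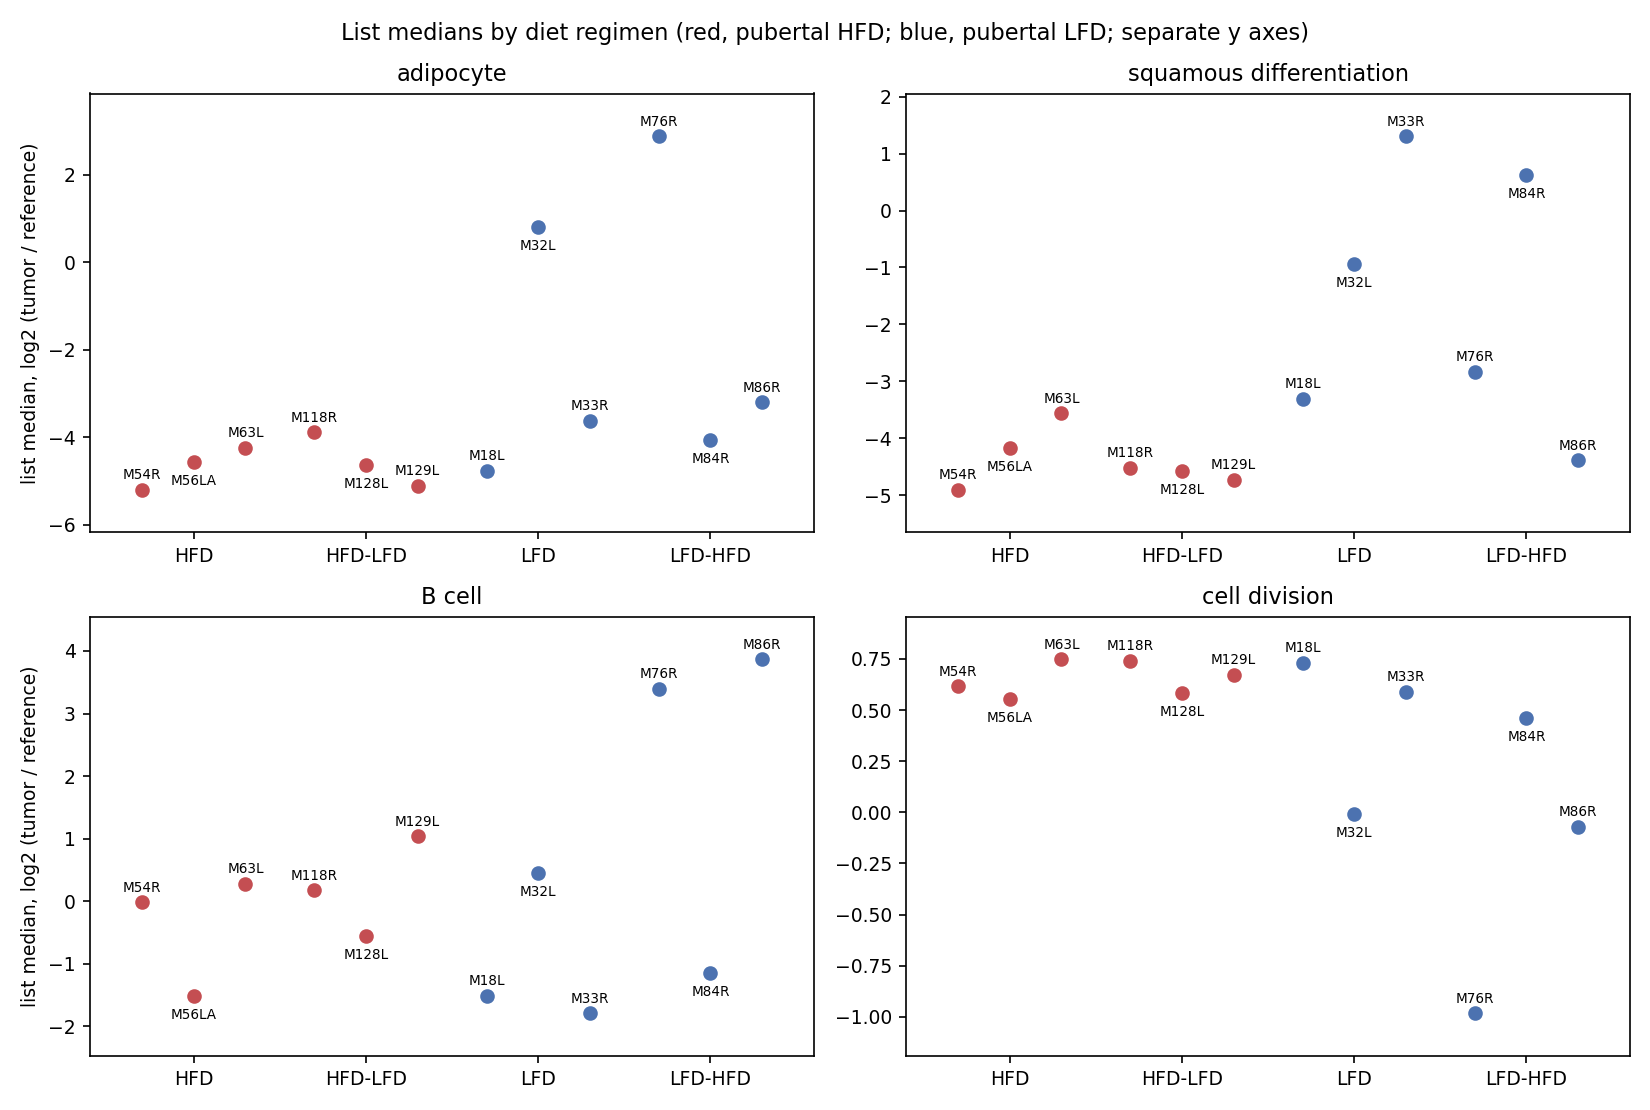
Median log2 of tumor over reference (y axes, separate scales) of 4 gene lists in each of the 12 tumors, by diet regimen (x axis), red for pubertal HFD and blue for pubertal LFD. The adipocyte list is high in M32L and M76R, the squamous list in M33R, M84R and M32L, the B cell list in M76R and M86R, and the cell division list is low in M32L, M76R and M86R, so the LFD tumors that stand out differ from list to list.

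Endothelial genes had lower means after pubertal HFD for 19 of 20, with 7 at an unadjusted p under 0.05 against 4.28% of all genes, and 0 called. The median difference was -0.72 with all tumors and -0.30 without the 3, where 1 member had a lower mean at that level. Vwf, which tethers platelets to the vessel wall, and the endothelial matrix protein gene Mmrn2 differed by -1.77 and -1.14. Pecam1, which encodes the CD31 stained in the study, ran from -0.72 to 0.44 with a median of -0.26 and from -0.45 to 1.62 with a median of 0.31, and the difference of -0.60 did not pass (adjusted p = 0.546 with limma). None of 17 angiogenic factors had an unadjusted p under 0.05.

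Of 21 collagen genes, 18 had a lower mean after pubertal HFD, 8 at an unadjusted p under 0.05 against 4.28% of all genes, and 0 were called. Their median difference was -0.63. Without the 3 arrays it was -0.86, and 3 members had a lower mean at that level against 4.34% of all genes. Col1a1, the main fibrillar collagen chain, ran from -3.53 to -1.68 with a median of -2.20 after pubertal HFD and from -2.94 to -0.01 with a median of -0.78 after pubertal LFD. M18L, at -2.94, was the only LFD tumor among or below the HFD tumors. Col3a1 differed by -1.82 and Col5a2 by -1.49, again with M18L as the lowest LFD tumor. Per tumor, the collagen median lay between -2.01 and -0.99 in the HFD tumors, was -1.20 in M18L and lay between -0.53 and 0.08 in the other 5 LFD tumors. Within slides the median difference was -0.05, -0.61 and -0.84.

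Among 24 mesenchymal genes 15 had a lower mean after pubertal HFD, 6 at an unadjusted p under 0.05, and 1 had a higher mean at that level, against 4.28% and 5.29% of all genes. The 6 include Fap, a protease of activated fibroblasts, at -1.42, Postn, a matrix protein, at -1.48, and Snai2, a repressor of E-cadherin, at -1.68. The 1 in the other direction was Twist1, also a transcription factor of epithelial to mesenchymal transition, which ran from -0.03 to 1.58 with a median of 0.70 after pubertal HFD and from -1.29 to 0.29 with a median of 0.02 after pubertal LFD. Twist1 and Snai2 thus had differences of opposite sign, 0.89 and -1.68. The median over the list was -0.72, and -0.34 without the 3, where 3 members had a lower and 0 a higher mean at an unadjusted p under 0.05. Among matrix proteases and their inhibitors, Mmp23 differed by -1.34 and was among the genes called without M18L.

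Basal and myoepithelial genes had lower means after pubertal HFD for 12 of 13, with 7 at an unadjusted p under 0.05 against 4.28% of all genes, 0 called, and a median difference of -0.97. The basal keratin Krt5, stained in the study, ran from -3.86 to -2.44 with a median of -3.18 after pubertal HFD. After pubertal LFD it read 2.67 in M33R, 2.34 in M84R, 0.38 in M32L, -1.46 in M76R, -3.04 in M86R and -3.17 in M18L. The difference was -2.77 (standard error 0.97, adjusted p = 0.442 with limma). Krt14 and Krt17, which are also keratins of basal cells, differed by -2.58 and -2.87 with M33R and M84R highest. The contractile genes Acta2 and Myh11 differed by -0.97 and -1.58, and for Acta2 the highest tumor was M32L, at -0.06. Without M32L, M76R and M86R the median difference over the list was -0.78, with 5 members at that level.

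M33R and M84R also stood out in genes of squamous, or keratinized, epithelium. This list of 30 genes was drawn up after values had been seen, so its levels are a description with no test. Of the 30 genes, 27 were measured, and their median was 1.31 in M33R, 0.62 in M84R and -0.94 in M32L, against -2.83 in M76R, -3.31 in M18L, -4.38 in M86R and -4.90 to -3.56 in the 6 HFD tumors. The probes of 4 of the 27 were not well above background on any HFD array. Krt6b, a keratin of activated and stratified epithelium, read 6.19 in M33R, 6.01 in M84R and 2.92 in M32L, while the HFD tumors lay between -3.40 and 1.02. Stfa1, a cystatin of epidermis and neutrophils, read -0.50, -0.11 and -0.94 in the same tumors and between -8.82 and -6.29 in the HFD tumors. Sprr2d, a precursor of the cornified envelope, read 3.83, 3.99 and 2.71 there and between -5.24 and -1.92 in the HFD tumors. Loricrin (Lor), a late marker of cornification, did not share the pattern and was highest in M76R, at -2.95. M33R comes from an LFD and M84R from an LFD-HFD mouse, so the pair spans both adult diets. Both lay on the third slide with M56LA, whose squamous median was -4.17.

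Neutrophil genes were highest in the same pair, with medians of 0.00 in M33R and 0.21 in M84R against -4.83 to -1.81 in the other 10 tumors. Of 11 measured, 2 had a lower mean after pubertal HFD at an unadjusted p under 0.05 (4.28% of all genes), Camp and Ngp, which encode granule proteins of neutrophil precursors. For these genes the highest tumors were instead M76R and M32L, with Ngp at -3.39 and -2.80 there and from -5.14 to -4.85 after pubertal HFD.

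Of 30 epithelial junction and keratin genes, 28 had a lower mean after pubertal HFD with a median difference of -1.0, but only Dsp, the desmoplakin of desmosomes, had an unadjusted p under 0.05, at -2.51. The lowest medians in this list were those of the HFD tumors M63L and M129L, at -2.71 and -1.51, of the LFD tumor M76R, at -0.17, and of the HFD tumor M118R, at 0.10. Krt18 ran from -1.12 to 3.61 and from 0.43 to 3.62 with a difference of -0.10 (adjusted p = 0.976), and its sign turned in several of the alternatives. Esr1, the estrogen receptor gene, differed by -0.40 (adjusted p = 0.863), and its highest tumors were M32L at 3.36 and M76R at 2.67. Wnt4, a target of progesterone in the gland, differed by -1.59. The progesterone receptor gene Pgr did not pass the filter on low signal.

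Macrophage genes did not separate the diets. Of 20, 16 had a higher mean after pubertal HFD, 0 had an unadjusted p under 0.05 in either direction, and the median difference was 0.20. Without the 3 arrays the median difference was 0.61 and 7 of the 20 had a higher mean at that level, against 4.85% of all genes. Emr1, the gene of the F4/80 antigen stained in the study, ran from 0.75 to 2.65 with a median of 1.52 and from 0.21 to 2.03 with a median of 1.13, a difference of 0.45 (adjusted p = 0.692). Its difference was 1.02 at adult LFD and -0.12 at adult HFD. Arg1, the arginase of alternatively activated macrophages, ran from -2.81 to -0.56 after pubertal HFD and from -4.27 to 0.62 after pubertal LFD. Its LFD values fell into a low pair, M76R at -4.27 and M86R at -3.62, and 4 tumors between 0.12 and 0.62. The difference of -0.49 did not pass (adjusted p = 0.864 with limma), and over the alternatives it ran from -1.86 to 0.23. Without M32L, M76R and M86R, the LFD tumors that remain all lay above the HFD tumors. Of the 11 M2 macrophage genes, Clec10a, a lectin, and Retnla had an unadjusted p under 0.05 (4.28% of all genes in this direction), at -2.54 and -2.37, and M76R and M32L were highest in both.

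B cell genes were high in the LFD-HFD tumors M76R and M86R only, with medians of 3.40 and 3.86 against -1.79 to 1.04 in the other 10. The median difference was -1.0 with all tumors and 1.11 without the 3 arrays, so its sign rested on them. T and NK cell genes had a median difference of -0.07, or 0.64 without the 3, and interferon-induced genes one of 0.14, or 0.62 without the 3. None of 16 T and NK cell genes and none of 33 interferon-induced genes had an unadjusted p under 0.05 with all 12 tumors. Of the inflammatory cytokines, Il33, an alarmin of epithelium and stroma, differed by -2.13 with M32L (4.86) and M76R (2.79) highest. Among the chemokine ligands, Ccl25, which draws T cells to thymus and gut, ran from -1.37 to -0.50 after pubertal HFD and from -2.58 to -1.48 after pubertal LFD. It did not overlap and differed by 1.03.

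**Figure D4:**
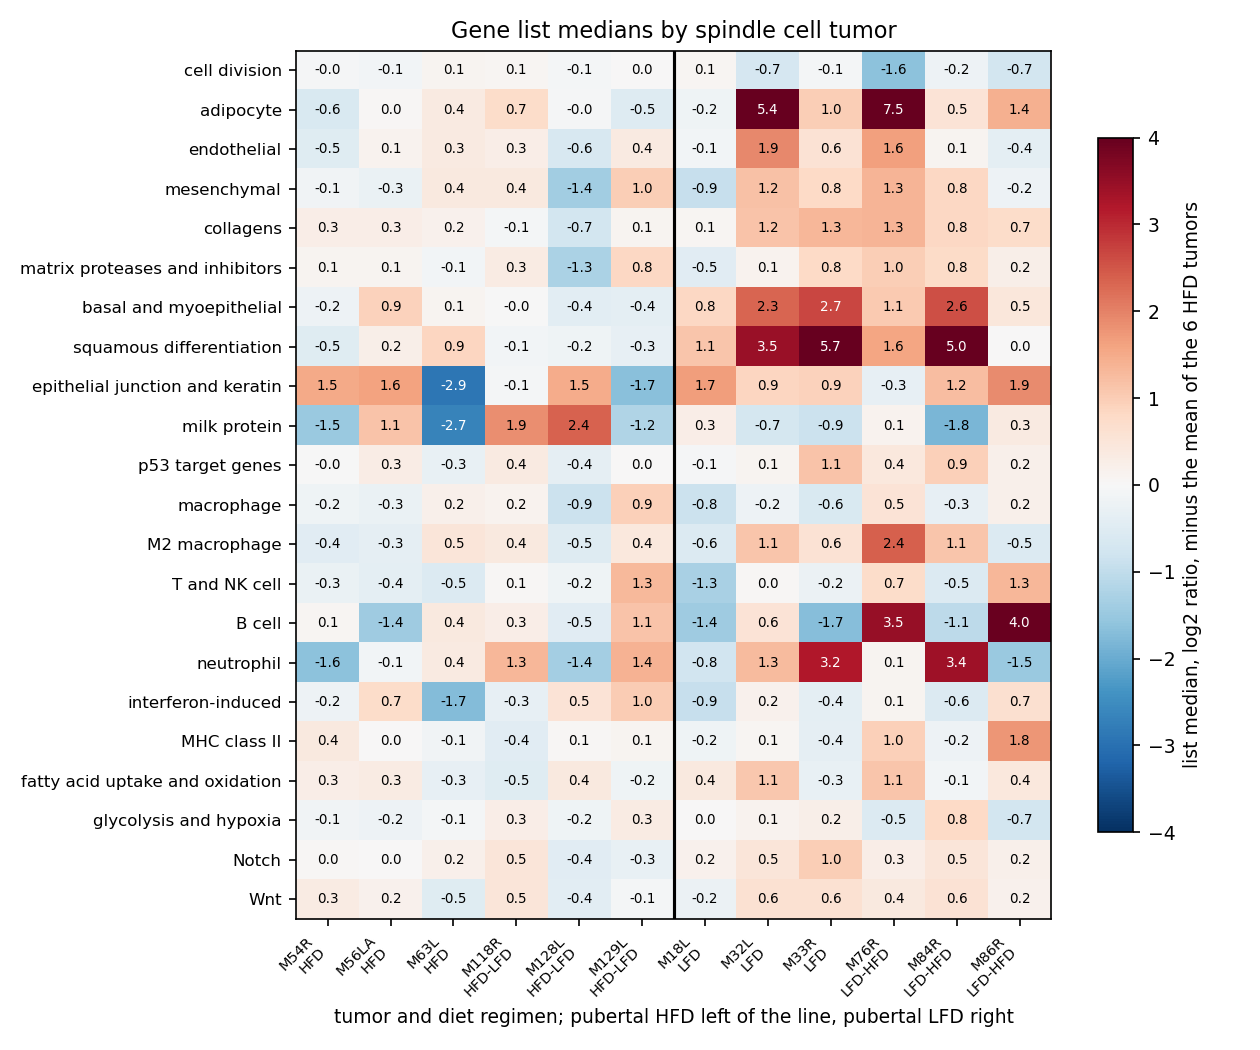
Median log2 of tumor over reference of 22 gene lists (y axis) in each tumor (x axis, regimen under the name), with the mean of the 6 pubertal HFD tumors subtracted from every value. The line parts pubertal HFD (left) from pubertal LFD (right); the strongest cells on the right belong to M32L and M76R (adipocyte), M33R and M84R (squamous, neutrophil), M32L (squamous) and M76R and M86R (B cell), while M18L stays close to the HFD tumors in these lists.

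Receptor and ligand genes of growth pathways gave scattered differences, none of them called. Met, the hepatocyte growth factor receptor gene, was high in every tumor, from 3.61 to 5.90 with a median of 5.29 after pubertal HFD and from 1.20 to 5.90 with a median of 2.98 after pubertal LFD, a difference of 1.65. M18L and M84R, at 5.90 and 5.41, were the highest LFD tumors. Fgfr1 ran from 0.89 to 1.45 and from -0.67 to 1.18, a difference of 0.88 with M18L as the highest LFD tumor, and Fgfr2 differed by -0.67. Of the EGF receptor family list, the ligand gene Hbegf and the feedback inhibitor gene Errfi1 differed by 1.38 and 1.25, and Errfi1 was among the genes called without M18L. Igf1, a growth factor made by stroma and liver, differed by -1.83 with M76R and M32L highest.

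In the Notch list 13 of 15 genes had a lower mean after pubertal HFD, with a median difference of -0.25. That median was -0.85 at adult LFD and 0.05 at adult HFD. At an unadjusted p under 0.05, 4 had a lower and 1 a higher mean, against 4.28% and 5.29% of all genes, and 0 were called. The ligand gene Jag1, the receptor gene Notch3 and the target Nrarp differed by -1.52, -0.87 and -1.17, and Rbpj, which encodes the DNA-binding partner of Notch, differed by 1.08. Of the Wnt list 1 of 29 had a higher and 2 a lower mean at an unadjusted p under 0.05, against 5.29% and 4.28% of all genes. Lef1, a nuclear effector, ran from -3.04 to 0.12 after pubertal HFD and from -2.85 to -2.11 after pubertal LFD, and M118R (-3.04) was the HFD tumor outside the rest. The secreted modulator Sfrp2 differed by -2.85 and the receptor Fzd1 had a lower mean.

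Metabolic genes showed few differences. Of 28 genes of cholesterol and fatty acid synthesis, 2 had a lower mean at an unadjusted p under 0.05, a share near the 4.28% of all genes, among them Hmgcs1, an early enzyme of sterol synthesis, at -0.81. The median difference over the list was 0.04, the same as over all genes tested, and -0.11 with normexp and loess, where that over all genes was -0.05. Of 24 genes of fatty acid uptake and oxidation 19 had a lower mean, and Fabp5, a fatty acid binding protein of epidermis and other epithelia, was apart, from -2.75 to -1.53 after pubertal HFD and from -1.17 to 1.78 after pubertal LFD, with M33R and M84R highest. Among 28 genes of glycolysis and hypoxia, Pkm2, a pyruvate kinase gene, was apart with a difference of 0.79, and Pfkfb3, which makes an activator of glycolysis, differed by -1.08. Of 34 respiratory chain genes 29 had a lower mean, by a median of -0.17, and 1 had an unadjusted p under 0.05.

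The pubertal difference was set against that in the 29 epithelial tumors by a test of the difference itself. With limma on all 41 tumors, 85 of 20406 genes (0.417%) had an adjusted p under 0.10. Of these, 29 had a higher and 56 a lower difference in spindle cell tumors, and 11 of the 24 genes above were among them. The 24 were picked for their difference in spindle cell tumors, which is part of this contrast, so the overlap is no separate support. Nes differed by 2.03 in spindle cell and by -0.38 in epithelial tumors (adjusted p of the contrast 0.0448), Nat8l by -2.79 and 0.24 (adjusted p = 0.00449), and Tmem45b by -4.83 and 0.40 (adjusted p = 0.0122). The fit takes 1 variance per gene over all 41 tumors, 29 of them epithelial. The standard error of the contrast was 0.488 for Nat8l and 0.933 for Tmem45b, below the 0.527 and 1.0 of the spindle cell difference alone. For Nes it was 0.519, above 0.360. These adjusted p thus draw largely on the spread of the epithelial tumors. In epithelial tumors the list medians were 0.32 for adipocyte genes, 0.30 for collagens, 0.11 for basal and myoepithelial genes and -0.05 for cell division. By their numbers, 6 of the 41 tumors come from 3 mice with 2 tumors each, among them M56LA and an epithelial tumor, and the fit takes all 41 as independent. With 1 tumor per mouse number (38 tumors, an alternative added after seeing the data) the contrast called 24 genes, all among the 85. Nes, Nat8l and Tmem45b were still called, at adjusted p of 0.0956, 0.0169 and 0.0376. The count of the contrast also depended on single spindle cell tumors. In place of 85, 487 genes were called without M18L and 154 without M86R, but 6 without M76R and 8 without M32L. It was 37 without M63L, 41 without M118R, 47 without M129L, 49 without M33R and 50 without M54R. With normexp and loess 336 were higher and 1885 lower.

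The tumors were also compared by how many genes lay outside the range of the HFD tumors. The number of genes more than 1 log2 unit above the range of the HFD tumors was 1169 in M76R, 1044 in M32L, 456 in M33R, 412 in M84R, 321 in M86R and 133 in M18L. For an HFD tumor against the other 5 it ran from 90 in M54R to 386 in M129L. Below the range, M76R had 984 genes and the HFD tumor M63L 687. The reference range was drawn from 6 tumors for the LFD group and from 5 for the HFD group, and a tumor that differs from the HFD tumors gains genes whether or not it resembles the other LFD tumors, so the counts are a description and no measure of the spread within a diet.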

How the data were processed

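The authors deposited, per the labels, Agilent 4x44K 2-color scanner output with the processed intensity of each spot in both channels, background-corrected and dye-normalized by Feature Extraction (10.5.1.1 in the file headers of these arrays), and a table of log2 ratios that the authors had normalized and filtered, used only as an alternative. Here log2 of red over green processed intensity was taken, control and outlier spots were left out and spots of a probe averaged. Probes were kept if both processed intensities exceeded 10 on 80% of the 12 arrays or more, with at least 4 values per group (26656 of 39429), and 1 probe per gene, that of highest mean signal. Limma 3.58.1 in R 4.3.3 (lmFit, eBayes) was used with Benjamini-Hochberg adjustment at 0.10, and the fit was tested on simulated data. Genes named are the 12 of smallest p in each direction that carry a symbol and lie well above background on 4 arrays of a group, members of 35 gene lists with an unadjusted p under 0.05, and genes stained in the study, with 3 genes not reported here. Members of a squamous list were named after their values were seen, and the members and lists were all chosen with earlier results of these data known. Alternatives changed the background correction, filter, probe, weights, samples, slide and value table. The study's SAM test was not run. Probe coordinates are those of the files, and exon or UTR positions were not determined here. The number of arrays limits the precision.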

Additional observations from a re-analysis of the deposited data

Results flagged for a closer look

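Of 238 values (array measures, list medians and named genes, each within a group of 6 tumors), 13 had 1 tumor whose gap to the nearest other exceeded Dixon's 95% critical value, and chance gives about 1 in 20 such groups. Beside its group, the spread of all ratios (median absolute deviation, log2) was wide in M63L at 1.22 against 1.0 to 1.06, and narrow in M32L at 0.714 against 1.08 to 1.25. Among list medians, T and NK cell genes were high in M129L at 1.31 against -0.54 to 0.06, chemokine ligands low in M18L at 1.20 against 2.44 to 2.83, and luminal and hormone receptor genes high in M32L at 1.87 against -0.29 to 0.42. Collagens were low in M128L at -2.01 against -1.34 to -0.99, and skeletal muscle genes higher in M63L at -4.16 against -5.18 to -4.91.

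Among genes, Ovgp1 was low in M32L at 0.0066 against 0.58 to 0.75, 4933421I07Rik in M84R at -0.32 against 0.27 to 0.54, Bid in M118R at 1.24 against 1.70 to 1.96 and Dact1 in M18L at -2.76 against -1.71 to -1.09. Pkm2 was high in M63L at 2.80 against 1.45 to 1.82, and Nrarp, also in M63L, at 0.24 against -1.90 to -1.13.

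The pubertal difference was itself tested between spindle cell and epithelial tumors, as the value in spindle cell tumors minus that in epithelial tumors (limma, adjusted p under 0.10). It was 2.42 for Nes, 1.35 for Gabre and 0.92 for Rtcd1. It was -5.23 for Tmem45b, -3.70 for Lpl, -3.56 for Serpina3i, -3.04 for Nat8l and -2.61 for Adam23. It was -2.09 for Dact1, -1.99 for Aspn, -1.91 for Fbln1, -1.71 for Fap, -1.70 for Col5a2 and -1.41 for Itga1. All of these genes were named for their difference in spindle cell tumors, which is part of the contrast and favours such calls. The fit also takes 1 variance per gene over all tumors, most of them epithelial. With 1 tumor per mouse number 7 of these 14 were still called, and Aspn, Col5a2, Dact1, Fbln1, Gabre, Lpl and Rtcd1 were not, at adjusted p of 0.109 to 0.205. For Lpl the adjusted p with all 41 tumors was 0.0997, and its values are highest in M76R (3.54) and M32L (0.81).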

How the results depend on the processing

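Of 34 settings of the 12-tumor comparison (31 of them planned), 28 gave 0 calls, as higher and lower genes after pubertal HFD. Calls appeared with normexp background and loess (2 and 6), array weights (187 and 310), all 41 tumors in the fit (15 and 54), and 0 and 1 both with a filter on probes well above background and with no filter on signal. That 1 gene, 4930434F21Rik, not tested under the filter used and named after its value was seen, differed by -4.87. With each tumor left out the counts ran from 0 to 27 higher and 0 to 69 lower, and in the 9 tumors without M32L, M76R and M86R from 0 to 96 and 0 to 312, each maximum without M18L. The 24 genes of smallest p kept their sign in every setting they were measured in, which their choice on these same tumors favours.

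The contrast with epithelial tumors gave 2 and 10 without the 3 arrays, 336 and 1885 with normexp and loess, and 15 higher and 72 lower in the authors' table. With the epithelial scan session as a term, chosen after seeing the data, it called 238 genes, and with 1 tumor per mouse number, also chosen afterwards, 5 higher and 19 lower. With each spindle cell tumor left out it ran from 0 to 209 and 6 to 278.

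Among named genes, signs turned only for stained genes and Trp53 with differences under 0.5. Without the 3 arrays Pcna read -0.088, Krt18 0.11, Esr1 0.44 and Trp53 -0.26. With single tumors left out Krt18 reached from -0.43 to 0.53 and Esr1 from -0.78 to 0.11. Array weights gave Krt18 0.51 and Esr1 0.23. Among settings added afterwards, without M32L and M76R Esr1 read 0.70 and Trp53 -0.27, without M33R and M84R Arg1 read 0.23, and normexp with slide as a block gave Pcna -0.055. The cause was not tested for any of these.

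Slide as a fixed block gave a smallest adjusted p of 0.857, and as a random block a consensus correlation of -0.0792. No paired analysis was possible because the replicate numbers follow accession order and pair no tumors. Dim probes limit what can be seen, since at most 72.7% of spots on an array were well above background.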

Other observations

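Further genes among the 96 called without M18L are given as values, picked after their values were seen and with no test of what they share. With 11 tumors and limma, Podn, a proteoglycan of the matrix, differed by -2.43, Mfap4, a microfibril protein, by -2.60, Abi3bp by -2.64, the complement inhibitor gene Serping1 by -2.75 and Rarres2, which encodes chemerin, by -3.13, all at an adjusted p of 0.0586. M18L read -4.09 for Mfap4, where the HFD mean was -4.38 and the mean of the other LFD tumors -1.79. For Abi3bp it read -4.03, where these means were -2.17 and 0.48. In 88 of the 96 genes M18L lay nearer the HFD mean, which their choice by the fit without it favours. These adjusted p depend on leaving it out. Reg1, a secreted lectin of pancreas and regenerating tissue, differed by -4.93, and the neuropeptide Y receptor gene Npy1r by -3.21. Of the lists, 2 of 21 collagen genes were called in the fit without M18L, and 0 of 15 adipocyte, 0 of 33 cell division and 0 of 13 basal genes. Of all genes 0.338% were called lower and 0.132% higher, so a count of 0 in lists of this size tells nothing about them. The 2 collagen genes were Col1a1 and Col3a1, in which M18L was the lowest LFD tumor.

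Milk protein genes varied more within the diets than between them. Their median ran from -0.09 in M63L to 4.96 in M128L after pubertal HFD and from 0.75 in M84R to 2.94 in M86R after pubertal LFD, with a median difference of 0.13 over 11 genes. Csn1s2b, a casein gene, was the only one with an unadjusted p under 0.05, at 2.05, and its probe was well above background on 5 HFD and 3 LFD arrays.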
